A study of Arabidopsis thaliana with 35 samples.

Results

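The genes described here are 55 Arabidopsis thaliana genes for heat shock proteins, other chaperones of the same families, and their regulators, chosen by gene identifier as members of these families, in a list drawn up with earlier results of these data known. They comprise 2 alpha-crystallin genes whose mutants were sequenced, 17 small heat shock proteins, 13 HSP70 proteins, 7 HSP90 proteins, 3 HSP100 proteins, 9 heat shock factors and 4 coactivators or cochaperones. Of the 55 genes, 54 were among the 66429 features counted (AT5G59720 was not analysed here), and 35 of them were among the 12106 features abundant enough to test. Each was compared across 7 genotypes, with attention to the spread between replicates and to replicate 4.

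Poly(A) RNA of mature pollen of ecotype Col0 was sequenced from mbd5 mbd6, sln, acd15, acd21, acd15 acd21, acd15 acd21 sln and wild-type plants, 5 libraries each. The genotype labels read acd15.5 and acd21.4, which the sample titles shorten to the names used here, and no label gives a treatment, plant age or insertion line. MBD5 and MBD6 are methyl-CpG-binding proteins, SLN is a J-domain protein, and ACD15 and ACD21 are small proteins built around an alpha-crystallin domain. The title of the study ties them to the silencing of genes and transposable elements. Replicates 1 and 2 of every genotype were in batch 1 and replicates 3 to 5 in batch 2, and no label tells if the replicates are separate plantings, so p-values measure only the spread between these libraries.

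Heat shock proteins are chaperones: small heat shock proteins hold unfolding proteins, HSP70 and HSP90 proteins fold and mature them in cycles of ATP hydrolysis with the help of J-domain and other cochaperones, and HSP100 proteins pull aggregates apart. Many of the genes are silent or low in unstressed tissue and are switched on within minutes of heating by heat shock factors, which bind repeats of the heat shock element, alternating GAA and TTC units, near the gene start. Some members serve every cell without stress. Pollen is known for a weak and atypical heat shock response in comparison with leaves.

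The promoters of the members were read first, because the heat shock element is the sequence the inducible members are known to share. The window ran from 250 bases before to 50 bases after the gene start in RefSeq's TAIR10.1 annotation, whose gene starts may lie upstream of the transcription start in pollen. A perfect element of 3 units, written GAANNTTCNNGAA or TTCNNGAANNTTC and searched on both strands, was in 8 of 55 members (14.5%) and in 132 of 27443 protein-coding genes (0.481%). The 8 were HSP17.4, AT1G53540, AT3G09440, HSP70, cpHsc70-2, HSFA2, HSFA7A and Hop3. The first line below is the whole window of HSP17.4 (AT3G46230, cytosolic small heat shock protein, minus strand, chr3:16984818-16985117), shown because it holds 2 elements and because its transcript was called across genotypes. The other lines are stretches around the element in members whose values are described further on: AT1G53540 (plus strand, chr1:19980236-19980268), AT3G09440 (minus strand, chr3:2905898-2905924), HSP70 (minus strand, chr3:3993844-3993876) and Hop3 (minus strand, chr4:7341317-7341349). Capitals mark the elements, and sequences run from 5′ to 3′ on the gene's strand.
HSP17.4: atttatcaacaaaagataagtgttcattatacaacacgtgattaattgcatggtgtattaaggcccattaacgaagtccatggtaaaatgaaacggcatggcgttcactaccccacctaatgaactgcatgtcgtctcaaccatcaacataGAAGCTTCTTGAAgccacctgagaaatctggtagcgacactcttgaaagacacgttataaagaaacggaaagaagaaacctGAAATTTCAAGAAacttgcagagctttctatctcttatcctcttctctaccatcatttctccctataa
AT1G53540: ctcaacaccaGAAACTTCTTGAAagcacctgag
AT3G09440: ccatcgaaccGAACATTCTCGAAcctt
HSP70: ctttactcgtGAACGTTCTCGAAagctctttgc
Hop3: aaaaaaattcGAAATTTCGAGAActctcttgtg
Elements began 99 and 18 bases before the gene start in HSP17.4 and 53 bases before it in AT1G53540. In AT3G09440, HSP70 and Hop3 the element began 33, 20 and 24 bases after the annotated start. Among the 35 tested members 6 held an element (17.1%), and among the 20 others 2 did, HSFA2 and HSFA7A. A window with no match says only that these letters were not found there.

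Total counts were 9267958 to 22208090 per library (median 13847738), and levels are given as CPM, counts per 1000000 of the library size after TMM normalisation. SLN had 0 to 0.509 CPM in sln and 0.172 to 0.368 CPM in acd15 acd21 sln, against 4.23 to 4.86 CPM in wild-type, and MBD6 had 0 to 0.11 CPM in mbd5 mbd6, against 0.629 to 1.01 CPM in wild-type. The pollen label was borne out by marker genes: 6 vegetative cell genes summed to 17500 to 35000 CPM per library and 5 sperm cell genes to 203 to 262 CPM, whereas 6 photosynthesis genes of green tissue summed to 4.02 to 27.1 CPM and 5 tapetum genes to 0.258 to 0.913 CPM, with A9 (AT5G07230) and MS1 at 0 counts in every library. In RNA from whole pollen, fewer cells of a type and less RNA per cell cannot be told apart.

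Both alpha-crystallin genes of the mutated loci were hardly transcribed in pollen of any genotype. ACD15 (AT1G76440, chromosome 1, 28682084 to 28683785) had 0 to 1 counts in every library, with sums over 5 libraries of 2 in mbd5 mbd6, 1 in sln and 2 in acd21, and 0 in acd15, acd15 acd21, acd15 acd21 sln and wild-type. A count of 0 over the 5 wild-type libraries allows a level of up to 0.0443 CPM of all counts, by counting error only. ACD21 (AT1G54850, chromosome 1, 20454389 to 20456220) summed to 3 counts in mbd5 mbd6, 10 counts in sln, 5 counts in acd15, 1 count in acd21, 2 counts in acd15 acd21, 2 counts in acd15 acd21 sln and 6 counts in wild-type. Neither passed the filter, so the acd15 and acd21 labels could not be checked on these transcripts.

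Levels between genes were compared per kilobase of exon in wild-type. The highest member was the heat shock factor HSFA5 (AT4G13980), a class A factor, with a mean of 55.3 CPM per kilobase. It was followed by HSP91 (AT1G79930), an HSP70-related protein also named Hsp70-14, at 24.4 CPM per kilobase and by ACD32.1 (AT1G06460), an alpha-crystallin domain protein, at 19.9 CPM per kilobase. HSP70 (AT3G12580) with 14.4, HSP17.4 with 13.6 and the peptidyl-prolyl isomerase gene AT5G48570 with 10.4 CPM per kilobase came next, and the wild-type libraries of HSP70 and HSP17.4 overlapped in level. The HSP17.4 mean included 22 CPM in wild-type replicate 4, against 5.54 to 9.21 CPM in the other wild-type libraries, so its place depends on that library. At the other end, the plastid protein HSP21, the endoplasmic reticulum protein ATHSP22.0, the mitochondrial HSP23.6-MITO, the factors HSFA2 and HSFA7A, HSF3, HSF4, CLPB4, CR88 and Hsp89.1 did not pass the filter. They belong to 19 untested members whose highest count in any library lay between 1 and 10 and whose highest level in any library was 0.798 CPM.

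**Figure D1:**
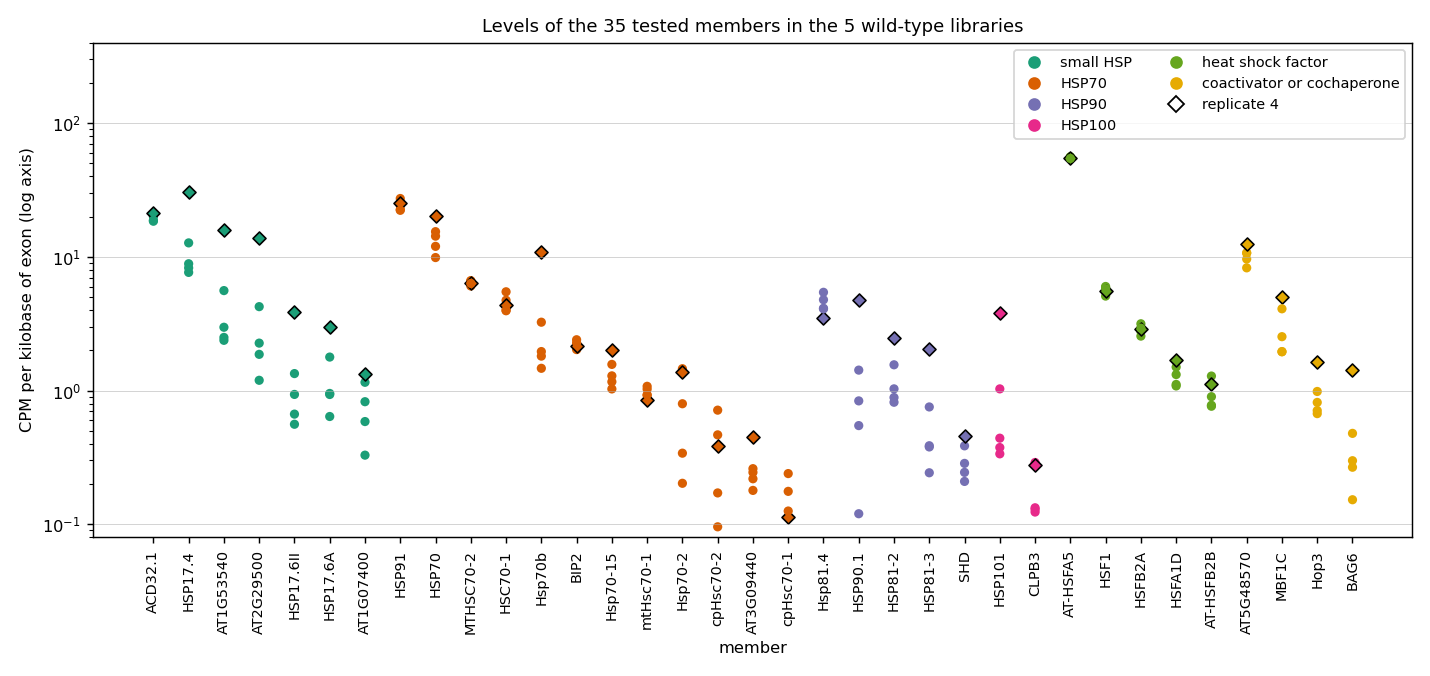
CPM per kilobase of exon (log axis) of the 35 tested members in the 5 wild-type libraries, grouped by class, with replicate 4 as an outlined diamond. HSFA5, HSP91 and ACD32.1, which have the highest means, show little spread, and HSP17.4 in replicate 4 lies above HSP91 and ACD32.1. Replicate 4 stands apart from the other libraries for HSP101, Hsp70b, HSP90.1, BAG6 and most small heat shock proteins.

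Members differed sharply in how evenly they were expressed. HSFA5 varied least: its CPM were 102, 104, 103, 106 and 102 in mbd5 mbd6, 104, 106, 102, 107 and 104 in sln, and 106, 103, 106, 104 and 103 in wild-type, and all 35 libraries lay between 97.3 and 116 CPM. The biological coefficient of variation, the spread between libraries of one genotype and batch as edgeR estimates it, was 0.0343 for HSFA5, 0.0501 for HSP91 and 0.0519 for ACD32.1. For the inducible HSP90.1 (AT5G52640, cytosolic HSP90) it was 0.849, for HSP101 (AT1G74310, the cytosolic disaggregase) 0.768 and for AT2G29500, a small heat shock protein gene, 0.648. The median over the 35 members was 0.195, against 0.0808 over all tested features, and 13 of the 35 (37.1%) were among the 5% of features whose dispersion most exceeded the trend at their abundance.

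Most of the uneven members were high in replicate 4 of several genotypes. For HSP101 the CPM of replicates 1 to 5 were 1.12, 2.43, 0.929, 0.616 and 0.552 in mbd5 mbd6 and 0.656, 2.06, 1.09, 1.69 and 1.19 in sln. They were 1.82, 0.682, 2.23, 12.3 and 2.71 in acd15 and 1.51, 0.705, 3.21, 9.02 and 2.28 in acd21. In acd15 acd21 they were 0.956, 0.912, 0.417, 4.69 and 1.16, in acd15 acd21 sln 1.1, 0.922, 0.732, 2.95 and 0.572, and in wild-type 3.46, 1.26, 1.48, 12.7 and 1.13. Replicate 4 was thus the highest HSP101 library in acd15, acd21, acd15 acd21, acd15 acd21 sln and wild-type, and in mbd5 mbd6 and sln it was not, replicate 2 being highest there.

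HSP90.1 and AT1G53540, a cytosolic small heat shock protein gene, were also highest in replicate 4 of acd15, acd21, acd15 acd21, acd15 acd21 sln and wild-type. In sln the highest library was replicate 4 for HSP90.1 (2.43 CPM, with 2.14 CPM in replicate 2) and replicate 5 for AT1G53540 (2.09 CPM). HSP90.1 in replicate 4 had 0.411 CPM in mbd5 mbd6, 2.43 CPM in sln, 8.48 CPM in acd15 and 7.26 CPM in acd21. It had 3.89 CPM in replicate 4 of acd15 acd21, 2.09 CPM in that of acd15 acd21 sln and 10 CPM in that of wild-type, and the other 4 wild-type libraries had 0.252 to 2.99 CPM. AT1G53540 in replicate 4 had 1.78 CPM in mbd5 mbd6, 1.82 CPM in sln, 14.8 CPM in acd15 and 7.66 CPM in acd21. It had 5.09 CPM in replicate 4 of acd15 acd21, 4.3 CPM in that of acd15 acd21 sln and 14.3 CPM in that of wild-type, and the other 4 wild-type libraries had 2.14 to 5.04 CPM. For both genes, acd15 and wild-type replicate 4 were the highest of all 35 libraries. Hsp70b (AT1G16030), a heat-inducible cytosolic HSP70, likewise reached 26.2 CPM in acd15 replicate 4 and 27.9 CPM in wild-type replicate 4, while the other 4 wild-type libraries had 3.77 to 8.34 CPM. HSP101, HSP90.1, AT1G53540 and Hsp70b are named here after their values were seen.

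**Figure D2:**
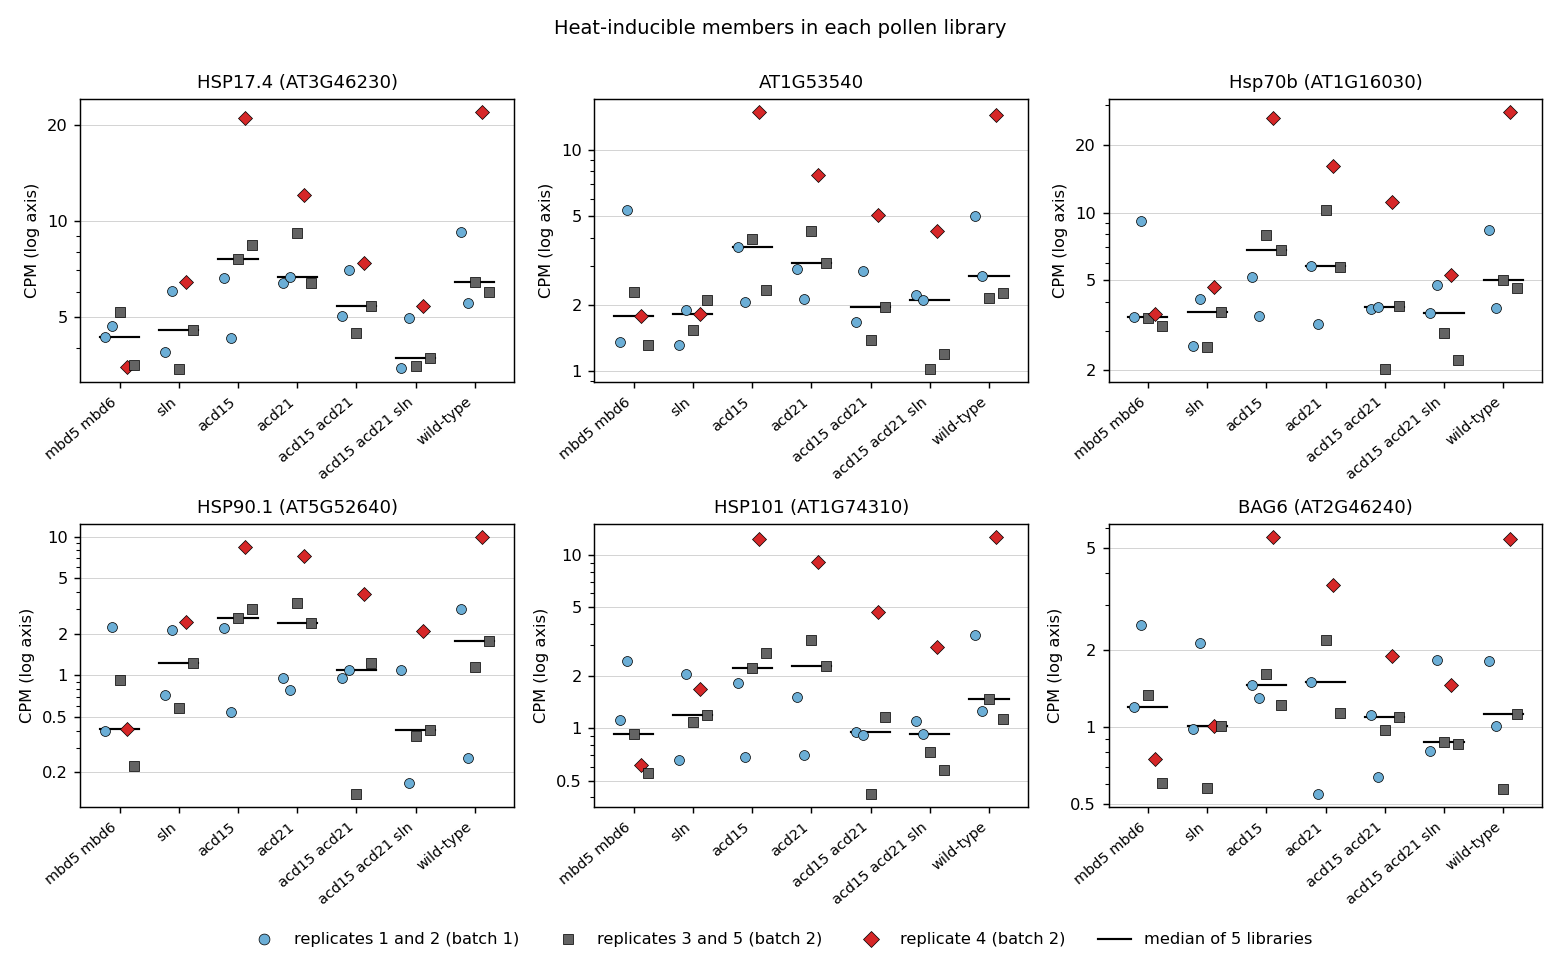
CPM (log axis) of 6 heat-inducible members in each library, by genotype, with batch 1 as circles, batch 2 as squares and replicate 4 as red diamonds; lines are medians of 5 libraries. Replicate 4 lies above the other libraries of acd15, acd21, acd15 acd21 and wild-type in all 6 panels and does not in mbd5 mbd6.

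Counted over all members, replicate 4 was at least 2-fold above the mean log2 CPM of replicates 3 and 5, its companions in batch 2, for 1 of 35 members in mbd5 mbd6, against 1.11% of all tested features. The count was 2 of 35 in sln (1.44% of features), 11 in acd15 (0.578% of features) and 8 in acd21 (0.909% of features). It was 8 in the double mutant acd15 acd21 (1.39% of features), 9 in the triple mutant acd15 acd21 sln (1.71% of features) and 14 in wild-type (1.68% of features). Those 14 members in wild-type comprised 5 small heat shock proteins (HSP17.6II, HSP17.6A, HSP17.4, AT1G53540 and AT2G29500), 3 HSP70 genes (Hsp70-2, AT3G09440 and Hsp70b), 3 HSP90 genes (HSP90.1, HSP81-2 and HSP81-3), HSP101, the HSP70-HSP90 cochaperone Hop3 and the BAG-domain protein BAG6. No heat shock factor was among them. Of the 14, 4 held the perfect element (28.6%). Replicate 4 was the highest batch 2 library, by any margin, for 37.1% of members in mbd5 mbd6 (29.3% of features). The share was 57.1% in sln (30.9% of features), 80% in acd15 (34.2%) and 45.7% in acd21 (31.2%). It was 57.1% in acd15 acd21 (34.8%), 51.4% in acd15 acd21 sln (34.9%) and 74.3% in wild-type (34.1%). As replicate 4 was singled out with earlier results known, these counts describe the libraries and carry no test.

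The libraries of batch 1 differed from each other as well. In mbd5 mbd6, replicate 2 was at least 2-fold above replicate 1 for 9 of 35 members (2.4% of features), with Hsp70b at 9.15 CPM in replicate 2 and 3.43 CPM in replicate 1. In sln, replicate 2 was at least 2-fold above replicate 1 for 4 members (1.14% of features). In acd15 and in wild-type, replicate 1 was at least 2-fold above replicate 2 for 5 members each (0.9% and 1.33% of features). For HSP90.1 the wild-type values of batch 1 were 2.99 and 0.252 CPM. Marker genes were also summed in the replicate 4 libraries. The 5 sperm cell genes summed to 220 to 262 CPM in them and were highest in replicate 4 in 6 of 7 genotypes, mbd5 mbd6 being the exception. The vegetative cell genes summed to 22200 to 35000 CPM in replicate 4, and acd15 acd21 sln replicate 4 was the highest of all 35 libraries for both sums. Photosynthesis genes summed to 8.14 to 13.9 CPM and tapetum genes to 0.368 to 0.898 CPM in replicate 4, within the ranges of the other libraries. The part of these sums in the heat shock gene values was not tested.

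**Figure D3:**
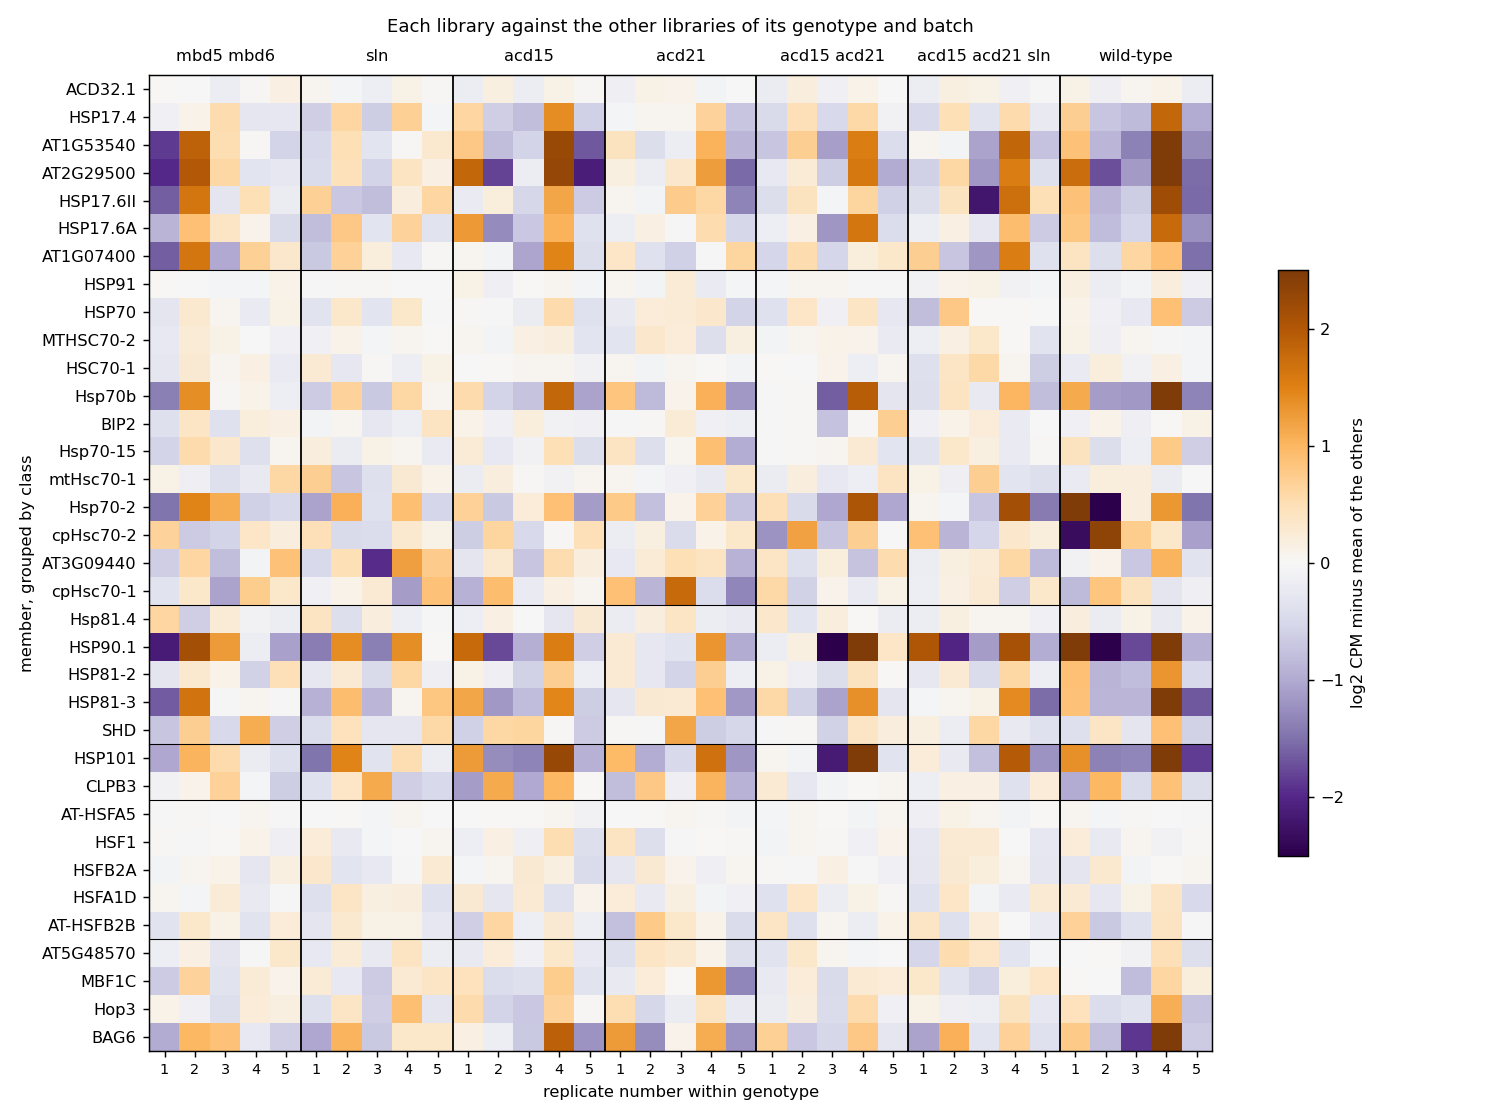
Log2 CPM of each tested member in each library minus the mean of the other libraries of its genotype and batch; columns are libraries by genotype and replicate number, rows are members by class, brown is above and purple below the others. The brown columns at replicate 4 of acd15, acd21, acd15 acd21, acd15 acd21 sln and wild-type hold small heat shock proteins, Hsp70b, HSP90.1, HSP101 and BAG6, and the row of HSFA5 stays pale.

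The 7 genotypes were compared in a fit with terms for genotype and batch. In the test over all 7 genotypes 4 of 35 members (11.4%) were called at an adjusted p under 0.05, beside 10.4% of all tested features: BIP2, HSC70-1, HSP17.4 and AT5G48570. Among the 6 mutants alone, without wild-type, 2 of 35 were called, HSC70-1 and BIP2, beside 6.76% of features. The HSC70-1 and BIP2 calls of both tests were lost in batch 1 alone, with adjusted p of 0.26 and 0.0805 over 7 genotypes and of 0.272 and 0.103 among the mutants, and in none of the other alternatives tried.

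HSC70-1 (AT5G02500, chromosome 5, 553745 to 556623), a constitutive cytosolic HSP70, was higher in acd15 acd21 sln. Its CPM were 14.6, 19.2, 25.8, 20.3 and 14.7 in acd15 acd21 sln, against 12.1, 14, 10.1, 11.2 and 10.2 in wild-type. All 5 libraries of acd15 acd21 sln lay above all 5 of wild-type. The other 5 mutants had 10.6 to 15.1 CPM, with 11.8 to 15.1 CPM in sln and 10.8 to 12 CPM in acd15 acd21. The log2 fold change of acd15 acd21 sln over wild-type was 0.70 ± 0.11 (SE, n = 5 each, adjusted p = 7.38e-06, edgeR), that of sln was 0.28 ± 0.11 (adjusted p = 0.133) and that of acd15 acd21 was not called either. Within batches the acd15 acd21 sln change was 0.36 in batch 1 (adjusted p = 0.255) and 0.93 in batch 2. With only acd15 acd21 sln and wild-type in the fit it was 0.71, with an adjusted p of 0.0697. The coding sequence of HSC70-1 is 86.9% identical to that of Hsp70-2 and 84.26% to that of AT3G09440, and the tables do not show how reads with several alignments were treated.

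BIP2 (AT5G42020, chromosome 5, 16807342 to 16810693), the endoplasmic reticulum HSP70 that serves secretion and the unfolded protein response, split the mutants. Its CPM were 6.83, 7.13, 6.91, 7.29 and 9.37 in sln and 6.95, 7.05, 7.78, 6.62 and 6.51 in acd21, against 6.06, 6.54, 5.52, 5.87 and 6.2 in wild-type. They were 5.11, 4.71, 5.08, 4.46 and 4.38 in acd15 and 4.55, 4.95, 5.12, 4.18 and 4.58 in acd15 acd21 sln. All libraries of acd15 and of acd15 acd21 sln thus lay below, and all of sln above, the 5 wild-type libraries, while those of acd21, mbd5 mbd6 (4.44 to 6.16 CPM) and acd15 acd21 (3.41 to 6.82 CPM) overlapped them. Against wild-type, BIP2 was called in sln only (log2 0.35 ± 0.11, SE, adjusted p = 0.0426). The changes in acd15 (log2 -0.34 ± 0.12, adjusted p = 0.113) and acd15 acd21 sln (log2 -0.36 ± 0.13, adjusted p = 0.0893) did not pass. The sln call was lost in 14 of 21 alternatives. These were each batch alone (log2 0.15 in batch 1 and 0.45 in batch 2), DESeq2 (adjusted p = 0.127), RLE scaling (0.0528), no batch term (0.0517), no replicate 4 in any genotype (0.118), the percentage of unassigned reads as a covariate (0.081), edgeR's older quasi-likelihood method (0.0705) and the fit of sln and wild-type alone (0.0675). The others were the fits without sln replicate 5 (0.364) or any of wild-type replicates 1, 3, 4 and 5 (0.0608 to 0.104). BIP2 and BIP1 have coding sequences 95.95% identical, so their counts may share reads. Mean levels of BIP1 were 11 CPM in sln, 10.2 CPM in acd21, 9.93 CPM in wild-type and 8.33 to 9.09 CPM in the other mutants. BIP1 was called over the 7 genotypes (edgeR, adjusted p = 0.0384) and not in sln against wild-type (log2 0.18, adjusted p = 0.335).

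The third paralog of the endoplasmic reticulum, BIP3 (AT1G09080), which is known as the copy induced by the unfolded protein response, did not pass the filter. It had 6, 5, 6, 10 and 5 counts in acd21, against 0, 0, 1, 5 and 0 counts in wild-type, and 0 to 7 counts in libraries of the other mutants. In acd21 replicates 1 to 5 that was 0.413, 0.392, 0.549, 0.798 and 0.571 CPM. With no filter on low counts, in a test of this gene that was chosen after its counts were seen, the log2 fold change of acd21 over wild-type was 2.55 ± 0.56 (SE, adjusted p = 0.000501 over 35845 features), and no other mutant was called.

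In acd15 acd21 sln 4 of 35 members (11.4%) were called, beside 6.21% of features: HSC70-1 was higher, and AT5G48570, MTHSC70-2 and MBF1C were lower (3.82% of features were called higher and 2.39% lower). The count was 2 without wild-type replicate 4 or without acd15 acd21 sln replicate 5, and 7 without wild-type replicate 5. AT5G48570 (chromosome 5, 19690461 to 19693845), an FKBP-type peptidyl-prolyl isomerase also named ROF2 whose product is known to act with HSP90 and heat shock factors, fell in acd15 acd21 sln. It had 13.1, 19, 17.8, 12.9 and 14.6 CPM in acd15 acd21 sln, against 23.6, 23.7, 21.3, 27.6 and 18.3 CPM in wild-type. The lowest wild-type library lay within the range of acd15 acd21 sln and the others lay above it. The log2 fold change was -0.56 ± 0.14 (SE, adjusted p = 0.0107), with -0.58 in batch 1 and -0.56 in batch 2, neither of which was called. Without wild-type replicate 4 it was -0.46 (adjusted p = 0.0624), and with replicate 4 left out of every genotype it was -0.43 (adjusted p = 0.0776). In the test over 7 genotypes AT5G48570 had an adjusted p of 0.0423. That call was lost with no filter on low counts (0.0739), no batch term (0.0645), no replicate 4 in any genotype (0.0796) or the covariate of unassigned reads (0.0963) and in each batch alone (0.494 in batch 1 and 0.197 in batch 2). It was also lost on leaving out wild-type replicate 1, 2 or 3, mbd5 mbd6 replicate 5, sln replicate 3 or 5, acd15 replicate 2 or 3, acd21 replicate 2, 3 or 4, acd15 acd21 replicate 2, 3, 4 or 5, or acd15 acd21 sln replicate 1, 4 or 5 (0.0501 to 0.116).

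MTHSC70-2 (AT5G09590, chromosome 5, 2975436 to 2978750), a mitochondrial HSP70, showed the smallest of these changes. It had 13.2, 14.6, 15.2, 13 and 11.1 CPM in acd15 acd21 sln, against 17, 15.6, 17.1, 16.5 and 16.3 CPM in wild-type, and the groups did not overlap. Its log2 fold change was -0.31 ± 0.09 in acd15 acd21 sln (SE, adjusted p = 0.019), and -0.24 in batch 1 and -0.35 in batch 2, not called in either (adjusted p = 0.555 in batch 1 and 0.0699 in batch 2). The call was also lost without wild-type replicate 3 (adjusted p = 0.0537) or acd15 acd21 sln replicate 5 (0.148), and with only these groups in the fit (0.0561). In the other 5 mutants it had 10.7 to 16.5 CPM and log2 fold changes from -0.20 in sln to -0.27 in acd21, none of them called.

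MBF1C (AT3G24500, chromosome 3, 8918267 to 8919683), a transcriptional coactivator of the heat stress response, had 2.06, 1.59, 1.61, 2.33 and 2.52 CPM in acd15 acd21 sln, against 2.36, 2.35, 3.05, 6 and 4.93 CPM in wild-type. The groups overlapped, and wild-type replicates 4 and 5 were the highest. Its log2 fold change was -0.91 ± 0.27 (SE, adjusted p = 0.0343), with -0.36 in batch 1 (0.798) and -1.14 in batch 2 (0.0912), not called in either. The call was lost in 11 of 21 alternatives, among them no batch term (adjusted p = 0.0858), no replicate 4 in any genotype (0.0816) and the covariate of unassigned reads (0.0599). Without wild-type replicate 4 the change was -0.70 (adjusted p = 0.181), and the call was also lost without wild-type replicate 5 or any of acd15 acd21 sln replicates 2 to 5 (0.053 to 0.115).

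**Figure D4:**
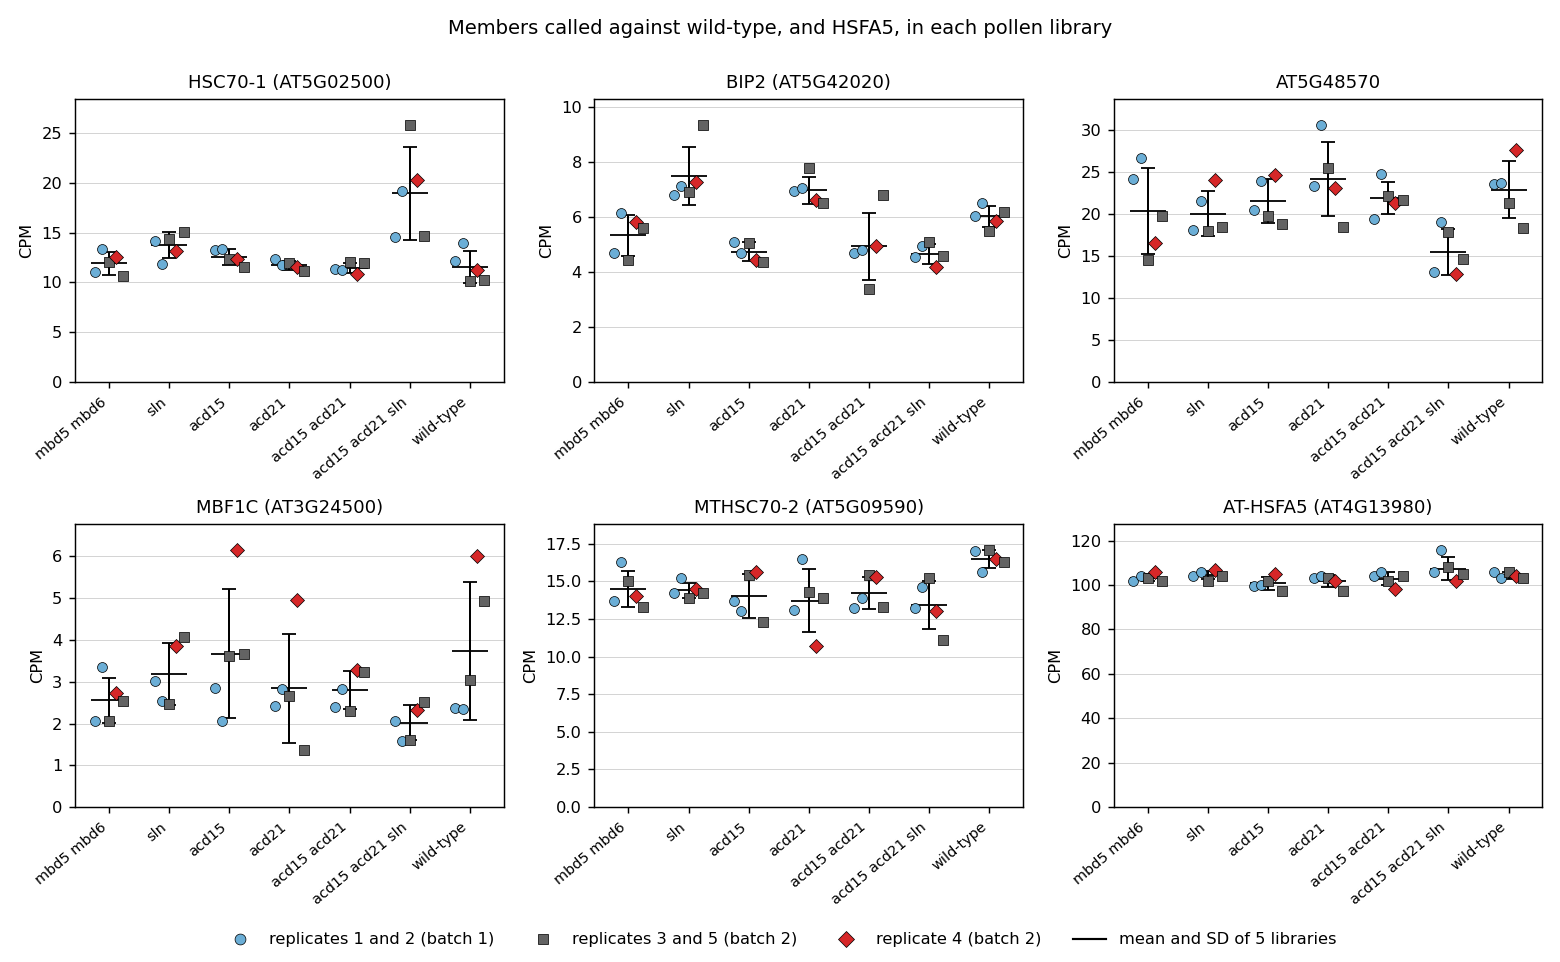
CPM of the 5 members called in a mutant against wild-type, and of HSFA5, in each library, by genotype, with mean and SD of 5 libraries; replicate 4 is a red diamond. HSC70-1 is higher in all 5 acd15 acd21 sln libraries than in wild-type, BIP2 lies above wild-type in sln, and HSFA5 is level near 100 CPM in every genotype.

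HSP17.4 was the only small heat shock protein called over the 7 genotypes (adjusted p = 0.0387). Its CPM were 4.31, 4.67, 5.16, 3.49 and 3.53 in mbd5 mbd6, 3.87, 6.02, 3.42, 6.41 and 4.54 in sln and 3.45, 4.95, 3.51, 5.4 and 3.72 in acd15 acd21 sln. They were 6.64, 4.3, 7.58, 21.1 and 8.38 in acd15, 6.4, 6.66, 9.16, 12.1 and 6.39 in acd21, 5.02, 7.02, 4.45, 7.38 and 5.42 in acd15 acd21, and 9.21, 5.54, 6.43, 22 and 5.99 in wild-type. All 5 libraries of mbd5 mbd6 and of acd15 acd21 sln lay below the lowest wild-type library, and those of sln overlapped wild-type. Against wild-type none of these was called: log2 -1.31 ± 0.40 in mbd5 mbd6 (SE, adjusted p = 0.0542), -1.31 ± 0.40 in acd15 acd21 sln (adjusted p = 0.0508) and -1.09 ± 0.37 in sln (adjusted p = 0.0781). With replicate 4 left out of every genotype the changes were -0.66, -0.81 and -0.61, with adjusted p of 0.0964, 0.0246 and 0.0906, so that acd15 acd21 sln was then called. The changes in mbd5 mbd6 and acd15 acd21 sln were called with DESeq2 (adjusted p = 0.015 and 0.0133), with the older quasi-likelihood method (0.0458 and 0.0423) and without wild-type replicate 2, 3 or 5 (0.022 to 0.0434), as was that in sln without wild-type replicate 5 (0.0377). With a replicate block the change in mbd5 mbd6 was called (0.00661). In acd15 acd21 sln (0.0117) and sln (0.021) 1 further alternative each called the change. The call over 7 genotypes was lost on leaving out wild-type replicate 1, mbd5 mbd6 replicate 3, 4 or 5, sln replicate 1, 3 or 5, acd21 replicate 3 or 4, or acd15 acd21 sln replicate 3, 4 or 5 (0.0504 to 0.0696). It held without replicate 4 of every genotype (0.0115) and was not reached within a batch (0.807 in batch 1 and 0.159 in batch 2), with no filter on low counts (0.0592), with no batch term (0.0539) or with the covariate of unassigned reads (0.0702).

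The same fit called none of the other 6 tested small heat shock proteins in any mutant. With no filter on low counts it called HSP17.6A lower in acd15 acd21 sln, sln and mbd5 mbd6, and AT1G07400 lower in the first pair of these. With a replicate block HSP17.6A was also called lower in mbd5 mbd6. The log2 fold changes of the 6 ran from -1.42 in HSP17.6A to -0.07 in ACD32.1 in mbd5 mbd6, from -1.67 to -0.06 in sln and from -1.53 to -0.13 in acd15 acd21 sln, with ACD32.1 nearest to 0 in each. In acd15 acd21 they ran from -1.07 to 0.07, in acd21 from -0.55 to 0.04 and in acd15 from -0.23 to 0.07. The change of AT1G53540 was -1.67 in sln and -0.82 without wild-type replicate 4, and in acd15 acd21 sln it was -1.51 and -0.67 without that library.

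Among the HSP90 and HSP100 proteins the edgeR fit with genotype and batch called none in any comparison with wild-type, while DESeq2 called HSP81-2 in mbd5 mbd6. With a replicate block edgeR called HSP81-2, HSP101 (adjusted p = 0.0211) and HSP90.1 (0.0267) lower in mbd5 mbd6. In sln HSP101 was called in 1 of 21 alternatives (0.0476). HSP101 had a log2 fold change of -2.06 ± 0.87 in mbd5 mbd6 (SE, adjusted p = 0.204), -1.77 ± 0.77 in sln (0.185) and -1.96 in acd15 acd21 sln (0.212). Without wild-type replicate 4 these values were -0.92, -0.62 and -0.83. HSP90.1 had -2.26 ± 0.87 in mbd5 mbd6 (SE, adjusted p = 0.155), -1.37 in sln (0.268) and -2.26 ± 0.88 in acd15 acd21 sln (0.143), and without wild-type replicate 4 it had -1.20, -0.31 and -1.21. Hsp81.4 (AT5G56000), the most abundant HSP90 gene in these libraries, had 8.34 to 14 CPM over all 35 libraries. HSP81-2, HSP81-3 and Hsp81.4 are neighbouring copies on chromosome 5 with coding sequences 90.53 to 95.38% identical, so reads may be shared among them.

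No heat shock factor was called in any comparison. In every mutant the 5 tested factors were between -0.17 and 0.27 on the log2 scale, and the lowest adjusted p among them was 0.377. HSF1 (AT4G17750, HSFA1A), a master activator of the response, had 7.13 to 13.4 CPM over all libraries, with acd15 replicate 4 the highest. HSFB2A and AT-HSFB2B, class B factors known as repressors, had 3.8 to 6.29 CPM and 1.67 to 3.29 CPM.

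Taken by comparison, the edgeR fit with genotype and batch called no member in mbd5 mbd6, beside 5.48% of features, with 14 of 35 at an unadjusted p under 0.05. DESeq2 called 2 in mbd5 mbd6 (HSP17.4 and HSP81-2), and edgeR with a replicate block called 6. Leaving out wild-type replicate 2, 3 or 5, or mbd5 mbd6 replicate 2, gave 3 or 4 calls, all of them lower. The share of all features called under these and the other alternatives is not given here, so their counts have no background beside them. In sln 1 member was called, higher, beside 6.31% of features called and 4.7% called higher, with 0 calls without wild-type replicate 1 or 4 or sln replicate 5 and 3 without wild-type replicate 5. At an unadjusted p under 0.05 were 13 members in sln and 18 in acd15 acd21 sln. The share of all tested features at an unadjusted p under 0.05 was not computed for any comparison. In acd15 the count was 0, beside 4.58% of features, with 2 members at an unadjusted p under 0.05 and 0 called by DESeq2. In acd21 the count was 0, beside 4.53%, with 1 at an unadjusted p under 0.05, 0 called by DESeq2 and 1 (MTHSC70-2) without acd21 replicate 2. In acd15 acd21 the count was 0, beside 4.97%, with 4 at an unadjusted p under 0.05, 0 called by DESeq2, and 1 without wild-type replicate 1 or 5 or acd15 acd21 replicate 2 (cpHsc70-2) or 5 (BIP2).

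As a group, members had log2 fold changes below 0 for 28 of 35 in mbd5 mbd6 and as many in acd15 acd21, 26 in acd15 acd21 sln, 23 in acd21, 22 in sln and 18 in acd15, beside 46.9 to 50.9% of all tested features. Their median was -0.48 in mbd5 mbd6, -0.23 in sln and -0.03 in acd15, and it was -0.09 for acd21, -0.27 for acd15 acd21 and -0.36 for acd15 acd21 sln. The median over all tested features was at most 0.0125 in size in each. All 6 comparisons share the wild-type libraries, replicate 4 included. With replicate 4 left out of every genotype the members' medians were -0.16 in mbd5 mbd6, -0.07 in sln and 0.06 in acd15, and 0.05 for acd21, -0.15 for acd15 acd21 and -0.25 for acd15 acd21 sln.

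**Figure D5:**
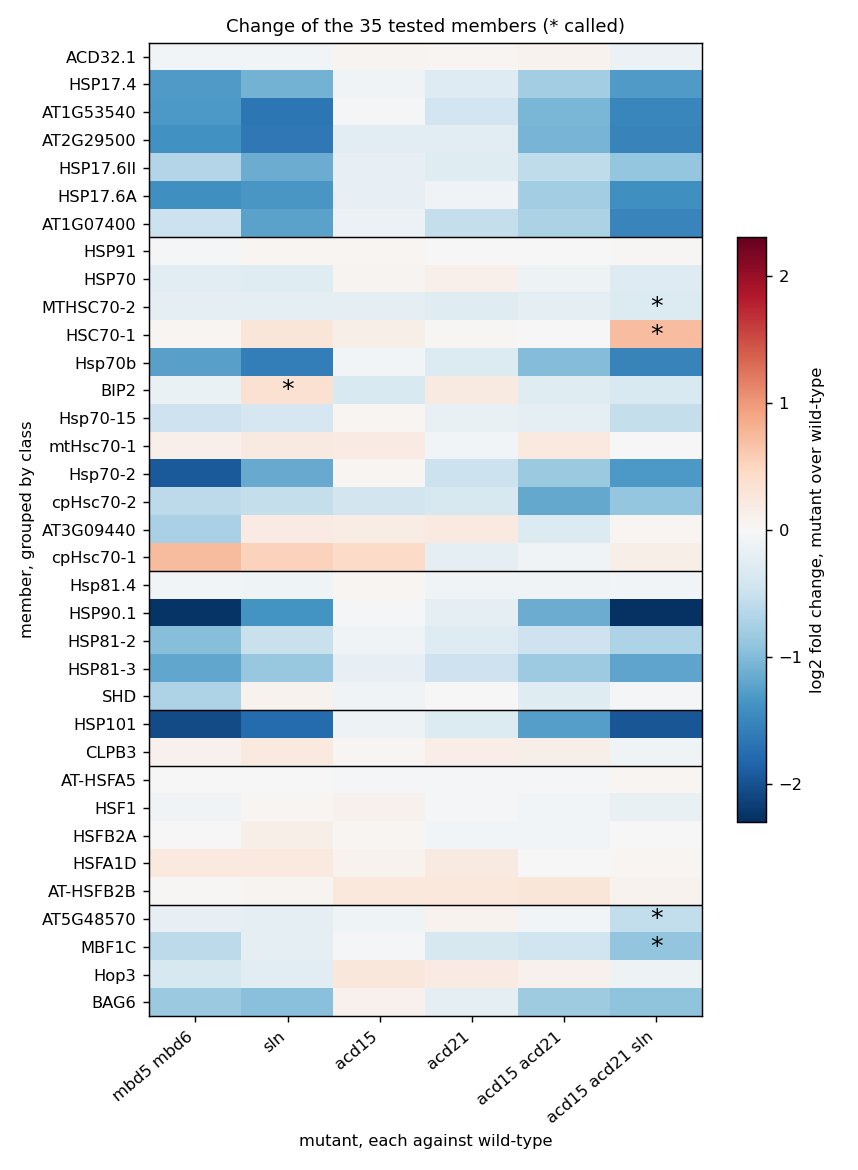
Log2 fold change of each mutant over wild-type for the 35 tested members, grouped by class, blue lower and red higher, with asterisks at adjusted p under 0.05. Blue cells of inducible members fill the columns of mbd5 mbd6, sln and acd15 acd21 sln without asterisks, and the asterisks sit on BIP2 in sln and on MTHSC70-2, HSC70-1, AT5G48570 and MBF1C in acd15 acd21 sln.

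A further 52 genes of the same pathways, other small heat shock proteins and HSP70 genes, chaperonins, J-domain proteins, cochaperones, heat shock factors and genes of the unfolded protein response, were all counted, and 29 could be tested. Over the 7 genotypes 7 of the 29 (24.1%) were called, beside 10.4% of all features, and among the 6 mutants 6 (20.7%), beside 6.76%. In mbd5 mbd6 1 was called (3.45%, beside 5.48% of features): ATERDJ3B (AT3G62600), a J-domain cochaperone of BiP in the endoplasmic reticulum, had 65.2, 70.6, 70.6, 65.2 and 58.9 CPM in mbd5 mbd6, against 48.5, 58.6, 49.4, 43.4 and 53.8 CPM in wild-type. All mbd5 mbd6 libraries lay above all wild-type libraries, with a log2 fold change of 0.38 ± 0.07 (SE, adjusted p = 9.38e-05; 0.34 and not called in batch 1 alone). In sln 2 were called (6.9%, beside 6.31% of features), both higher. AT4G16660, an HSP70 family gene, had 2.95, 2.93, 2.76, 2.57 and 4.14 CPM in sln, against 1.49, 2.6, 2.64, 2.08 and 1.83 CPM in wild-type (log2 0.60 ± 0.16, SE, adjusted p = 0.0116). It was not called without sln replicate 5 (0.204) or wild-type replicate 1 (0.0532), with DESeq2 (0.0648), with only sln and wild-type in the fit (0.0628) or within a batch. CRT1a, a calreticulin that folds glycoproteins, had a log2 fold change of 0.52 ± 0.16 in sln (SE, adjusted p = 0.0426), with means of 4.59 CPM in sln and 3.28 CPM in wild-type. The other mutants were higher than wild-type as well, at log2 0.30 to 0.41 and not called. Among the 6 mutants CRT1a was not called (adjusted p = 0.865). The sln call was lost in 16 of 21 alternatives. It was lost without any of wild-type replicates 1, 3, 4 and 5 or sln replicates 1, 3, 4 and 5 (0.0537 to 0.128). It was lost as well in batch 1 alone (0.24, adjusted p = 0.882), with DESeq2 (0.0763), RLE scaling (0.0502), no batch term (0.132), no replicate 4 in any genotype (0.132), the covariate of unassigned reads (0.0688) and the older quasi-likelihood method (0.05), and with only sln and wild-type in the fit (0.0617). In acd15 acd21 sln 1 was called (3.45%, beside 6.21% of features): ROF1, the paralog of AT5G48570, had 22.6, 25.7, 21.7, 21.5 and 22.3 CPM in acd15 acd21 sln, against 27.9, 30.3, 25.8, 31.6 and 27 CPM in wild-type. All acd15 acd21 sln libraries of ROF1 lay below all wild-type libraries, with a log2 fold change of -0.33 ± 0.08 (SE, adjusted p = 0.00477; -0.27 and not called in batch 1 alone). The other 3 comparisons with wild-type called 0 of the 29 in the edgeR fit with genotype and batch.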

How the data were processed

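Each of the 35 libraries had 1 table of raw read counts, which the authors deposited and which was not altered. The build TAIR10 and the tools STAR, HTSeq, Trim Galore and deepTools are named, per the submitters' processing notes. Their versions, the strand setting and the treatment of reads with several alignments are not given in the sources used, so values of near-identical and antisense genes are uncertain. HTSeq's 5 summary lines were removed before scaling. Of the reads that fell in 1 feature, in no feature or ambiguously in several, 0.217 to 0.999% per library fell in no feature. Reads in HTSeq's other summary lines were outside that total. This percentage is the covariate named unassigned reads.

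The test was that of edgeR 4.0.16 in R 4.3.3 (robust quasi-likelihood, TMM, terms for genotype and batch, all 35 libraries in 1 fit, filterByExpr with minimum count 10 and minimum total 15) and adjusted by Benjamini-Hochberg over 12106 features. The model was tested on simulated data. CPM are counts per 1000000 of the TMM-scaled library size of tested features, and log2 CPM used a prior count of 2. Errors of fold changes are standard errors. Symbols, coordinates and promoters came from RefSeq TAIR10.1.

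The members and lists were chosen with earlier results of these data known. Members called in any test are given by library, others by class. Alternatives were RLE scaling, DESeq2 1.42.0, no filter, no batch term, a replicate block, each batch alone, no replicate 4, the percentage of unassigned reads as a covariate, leave-one-out fits, 2-group fits and, added after seeing the data, edgeR's older quasi-likelihood method. No label says that a replicate number marks a shared planting, so numbers were not taken as pairs.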

Additional observations from a re-analysis of the deposited data

Results flagged for a closer look

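In each of 245 combinations of a tested member and a genotype, the gap of the highest or lowest library to its nearest neighbour was divided by the range of the 5 libraries and set against Dixon's critical value of 0.71. It was exceeded in 36 combinations (14.7%), against 4796 of 84710 combinations of any tested feature and a genotype (5.66%), and chance flags about 1 in 20. In 27 of the 36 the library was replicate 4 as the highest (633 of the 4796). The cause was not tested.

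Replicate 4 of wild-type stood apart in HSP17.6II (0.764), HSP17.4 (0.777), AT1G53540 (0.762), AT2G29500 (0.757), Hsp70b (0.811), HSP90.1 (0.719), HSP81-3 (0.714), HSP101 (0.799) and BAG6 (0.746). Replicate 4 of acd15 did so in HSP17.6II (0.712), HSP17.4 (0.757), AT1G53540 (0.849), AT1G07400 (0.81), AT2G29500 (0.727), HSP70 (0.728), Hsp70b (0.802), HSP101 (0.825), HSF1 (0.764) and BAG6 (0.91). In acd15 acd21 it was replicate 4 for HSP17.6A (0.846), AT2G29500 (0.805), Hsp70b (0.8), HSP90.1 (0.712) and HSP101 (0.826), and in acd15 acd21 sln for HSP17.6A (0.764), HSP101 (0.778) and Hop3 (0.742).

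Other libraries stood apart in single genes. Replicate 2 of mbd5 mbd6 was highest for AT1G53540 (0.763), Hsp70b (0.93) and HSP81-3 (0.869). In sln replicate 5 was highest for BIP2 (0.819), replicate 3 for CLPB3 (0.78) and replicate 2 for BAG6 (0.725). Replicate 2 of acd15 was highest for cpHsc70-1 (0.783), replicate 1 of acd15 acd21 for CLPB3 (0.743), and replicate 2 of acd21 was lowest for HSF1 (0.801).

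Below the filter on low counts, BIP3 summed to 32 counts over the 5 acd21 libraries, against 6 counts in wild-type.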

How the results depend on the processing

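The fold changes of the called members and of HSP101, HSP90.1, HSP17.4 and AT1G53540 reversed under no alternative; medians are given below. For the count over 7 genotypes (4), no filter gave 8, no batch term 2, batch 1 alone 0, batch 2 alone 2 and the covariate 2; leave-one-out fits gave 2 to 6. Among the 6 mutants (2), DESeq2 gave 4, no filter 7 and batch 1 alone 0; leave-one-out fits gave 2 to 4. For mbd5 mbd6 (0), DESeq2 gave 2, no filter 1 and the older quasi-likelihood method 1; leave-one-out fits gave 0 to 4. For sln (1), RLE scaling, DESeq2, no batch term, batch 1 alone, batch 2 alone, no replicate 4, the covariate, the older method and the 2-group fit gave 0 and no filter 4; leave-one-out fits gave 0 to 3. For acd15 the count was 0 under all alternatives. For acd21 (0), no filter gave 1, and leave-one-out fits 0 to 1. For acd15 acd21 (0), no filter and batch 2 alone gave 1, and leave-one-out fits 0 to 1. For acd15 acd21 sln (4), no filter gave 7, batch 1 alone 0, batch 2 alone 1 and the 2-group fit 2; leave-one-out fits gave 2 to 7. With no filter 35845 features were tested, so the no-filter counts can include members that the filter left out of the main counts. BIP3 was such a member and was called in acd21 with no filter (edgeR, adjusted p = 0.000501). The no-filter counts are thus not over the same members as the main counts. The share of all features called with no filter is not given here. Batches alone have fewer libraries, and the other causes were not tested. Without replicate 4 the members' median moved to -0.16 in mbd5 mbd6, -0.07 in sln and -0.25 in acd15 acd21 sln, and it turned sign in acd15 (0.06, against -0.03 with all libraries) and acd21 (0.05, against -0.09).

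The labels do not say that replicate numbers pair libraries. Deviations of same-numbered mutant and wild-type libraries correlated above 0.1 in 0 to 2 of 5 pairs per comparison across all tested features (r -0.132 to 0.308). Across the members all 5 did in 4 of 6 comparisons, those other than mbd5 mbd6 and sln, with r of 0.82 to 0.917 for replicate 4 (the lowest r in mbd5 mbd6 was -0.718); in batch 1 the pairs mirror each other. In batch 2, 10 of 18 mutant libraries correlated best with the wild-type library of their own number across all features and 8 of 18 across members. Each had 3 wild-type libraries to match, so about 1 in 3 would do so with no pairing. The matches are not independent, because deviations are from the mean of the same libraries, so these counts do not decide on pairing. With the number as a replicate block the counts were 14 over 7 genotypes and 9 among the mutants. By comparison with wild-type they were 6 in mbd5 mbd6, 6 in sln, 1 in acd21 (MTHSC70-2) and 6 in acd15 acd21 sln. Those of mbd5 mbd6 were HSP101, HSP17.4, Hsp70-2, HSP17.6A, HSP90.1 and HSP81-2, all lower. The share of all features called with the block is not given here, so these counts have no background beside them.

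Counts limit the low members: HSP101 had 6 to 224 counts per library and HSP90.1 2 to 159, and 19 members had at most 10.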
